A study of Mus musculus with 11 samples.

Results

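The genes described here are 10 chemokines of the mouse heart, Pf4, Ccl9, Ccl6, Ccl2, Ccl7, Ccl8, Ccl24, Cxcl12, Cx3cl1 and Cxcl9, out of 22608 genes with estimated counts. They were chosen by symbol from a larger family, and the choice used measured values. Pf4 stood out in the comparison of vehicle-treated CD and WT hearts and Ccl9 in the comparison of JZL184 with vehicle in CD hearts, so both comparisons are a description of the 10 genes, with no test. Hearts of 11 male mice aged 8 to 16 weeks were sequenced, 2 from WT VEH, 3 from WT JZL184, 3 from CD VEH and 3 from CD JZL184. CD (labelled WBS-CD) is the complete deletion model of Williams-Beuren syndrome on a C57BL/6J background, with 1 copy in every cell of the chromosome 5 interval from Gtf2i to Fkbp6, and WT are littermates, labelled C57BL/6. JZL184, an inhibitor of monoacylglycerol lipase, which degrades the endocannabinoid 2-AG, was injected intraperitoneally at 8 mg/kg daily for 10 days, and VEH mice received the vehicle by the same route. The treatment label of the VEH mice reads untreated, while their titles name the vehicle. Each column of the deposited table was taken as 1 mouse and is named by the letter in its header, since the headers carry no sample number.

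Chemokines are small secreted proteins that bind glycosaminoglycans and G protein-coupled receptors and direct the movement of leukocytes. They are classed by the spacing of the first cysteines of the mature protein, adjacent in CC chemokines, separated by a single residue in CXC chemokines and by several in the CX3C chemokine. In the heart, resident macrophages, endothelial cells, fibroblasts and platelets all release chemokines, some at rest, as Cxcl12, and others mainly after cytokine stimulation, as Cxcl9 after interferon-gamma.

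The coding stretch around those first cysteines is shown for all 10 genes, since it sets the class of each and shows how far sequences of close relatives differ. Sequences are from GRCm38 with the GENCODE release 21 gene models, written 5′ to 3′ on the coding strand, and the capitals mark the 2 cysteine codons.
Pf4 (CXC, chr5:90772929-90772967, plus strand, exon 2): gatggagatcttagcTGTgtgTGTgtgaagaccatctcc
Cxcl9 (CXC, chr5:92326827-92326865, minus strand, exon 2): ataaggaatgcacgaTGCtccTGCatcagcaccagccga
Cxcl12 (CXC, chr6:117171493-117171531, plus strand, exon 2): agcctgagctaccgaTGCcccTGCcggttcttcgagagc
Cx3cl1 (CX3C, chr8:94778036-94778080, plus strand, exon 2): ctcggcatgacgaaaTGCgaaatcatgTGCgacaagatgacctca
Ccl9 (CC, chr11:83575911-83575946, minus strand, exon 3): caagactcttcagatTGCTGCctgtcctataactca
Ccl6 (CC, chr11:83589371-83589406, minus strand, exon 3): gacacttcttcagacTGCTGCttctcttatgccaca
Ccl2 (CC, chr11:82036491-82036526, plus strand, exon 2): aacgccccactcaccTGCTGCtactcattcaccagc
Ccl7 (CC, chr11:82046523-82046558, plus strand, exon 2): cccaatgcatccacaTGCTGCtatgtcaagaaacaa
Ccl8 (CC, chr11:82116041-82116076, plus strand, exon 2): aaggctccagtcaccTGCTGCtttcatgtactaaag
Ccl24 (CC, chr5:135572650-135572685, minus strand, exon 2): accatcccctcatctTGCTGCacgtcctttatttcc

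The genes Ccl2, Ccl7, Ccl8, Ccl9 and Ccl6, lie in the chemokine region of chromosome 11. Ccl2 (chr11:82035571-82037453) and Ccl7 (chr11:82045712-82047525) are 8258 bases apart, and Ccl8 (chr11:82115185-82116799) follows 67659 bases after Ccl7. Ccl9 (chr11:83572919-83578636) and Ccl6 (chr11:83587882-83593087) are 9245 bases apart on the minus strand, and they are the members whose cysteine codons lie in exon 3 of 4. Pf4 (chr5:90772435-90773383) and Cxcl9 (chr5:92321347-92328079) are on chromosome 5, far from the deleted interval. Ccl24 (chr5:135569937-135573049) is on the same chromosome, 219892 bases beyond Fkbp6 and so outside the interval, and CD mice keep both copies of it. Cxcl12 (chr6:117168535-117181367) and Cx3cl1 (chr8:94772009-94782427) lie alone.

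The estimated counts depend on how far the transcripts can be told apart. Transcripts of Pf4, Ccl2, Ccl7, Ccl8 and Cx3cl1 shared no stretch of 31 bases with any other gene, and the share was 3.75% for Ccl9, 1.02% for Ccl6, 0.574% for Cxcl9, 0.11% for Cxcl12 and 0.0775% for Ccl24. The gene with the most stretches in common with Ccl9 was Smarcb1, and that with Ccl6 was Slc17a4, so the neighbours Ccl9 and Ccl6 were not each other's main partner. On the opposite strand, Ccl2 overlaps Gm17268, which was at 0 CPM in every mouse, and Ccl6 overlaps E230016K23Rik, which was not analysed here, and whether reads were assigned by strand is not given in the sources used here.

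Total counts lay between 69660232 and 92251443 per mouse, so 3 counts, the smallest level taken as detectable, correspond to 0.0306 to 0.0435 CPM (counts relative to the TMM-adjusted library size), for counting error only. All 10 chemokines were above this level in every mouse. Of the 10, 7 passed the filter of an average log2 CPM of 1 (11319 genes in all), while Ccl24, Ccl7 and Ccl8 had averages of 0.89, 0.66 and -1.14, and their fold-changes come from a fit on all genes. The genotype showed in Gtf2i, at 126 and 99.8 CPM in WT VEH and WT JZL184 against 54.1 and 66.8 CPM in CD VEH and CD JZL184, and in Baz1b, at 70.6 and 55.1 CPM against 26.0 and 32.7 CPM. Cardiomyocyte markers summed to 33510 to 47690 CPM. CD VEH mouse A stood apart by its erythroid markers, at 18830 CPM against 1419 to 5512 CPM in the other 10 mice. Mitochondrial transcripts took 39.4% to 41.2% of the counts in WT VEH, 45% to 46.6% in WT JZL184, 43.5% to 44.7% in CD VEH and 36.4% to 40.1% in CD JZL184.

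Levels between genes were compared per length of the longest coding transcript, as the mean CPM per kilobase over the 11 mice ± SD. Cxcl12 came first with 23.3 ± 4.52, followed by Pf4 with 17.2 ± 6.63 and Ccl6 with 9.997 ± 4.52. Next were Ccl9 with 3.58 ± 1.48, Ccl2 with 2.75 ± 1.15, Cxcl9 with 2.27 ± 0.888, Cx3cl1 with 2.10 ± 0.376 and Ccl7 with 1.96 ± 0.863. Ccl24 with 1.43 ± 0.523 and Ccl8 with 0.847 ± 0.388 came last. The steps from Pf4 to Ccl6, from Ccl6 to Ccl9 and from Ccl24 to Ccl8 were larger than the larger SD of the pair, and the other neighbours in this order did not differ by more than that. The order depends on the transcript, since with the shortest coding transcript Cxcl12 had 69.7 and Cx3cl1 18.5 CPM per kilobase.

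**Figure D1:**
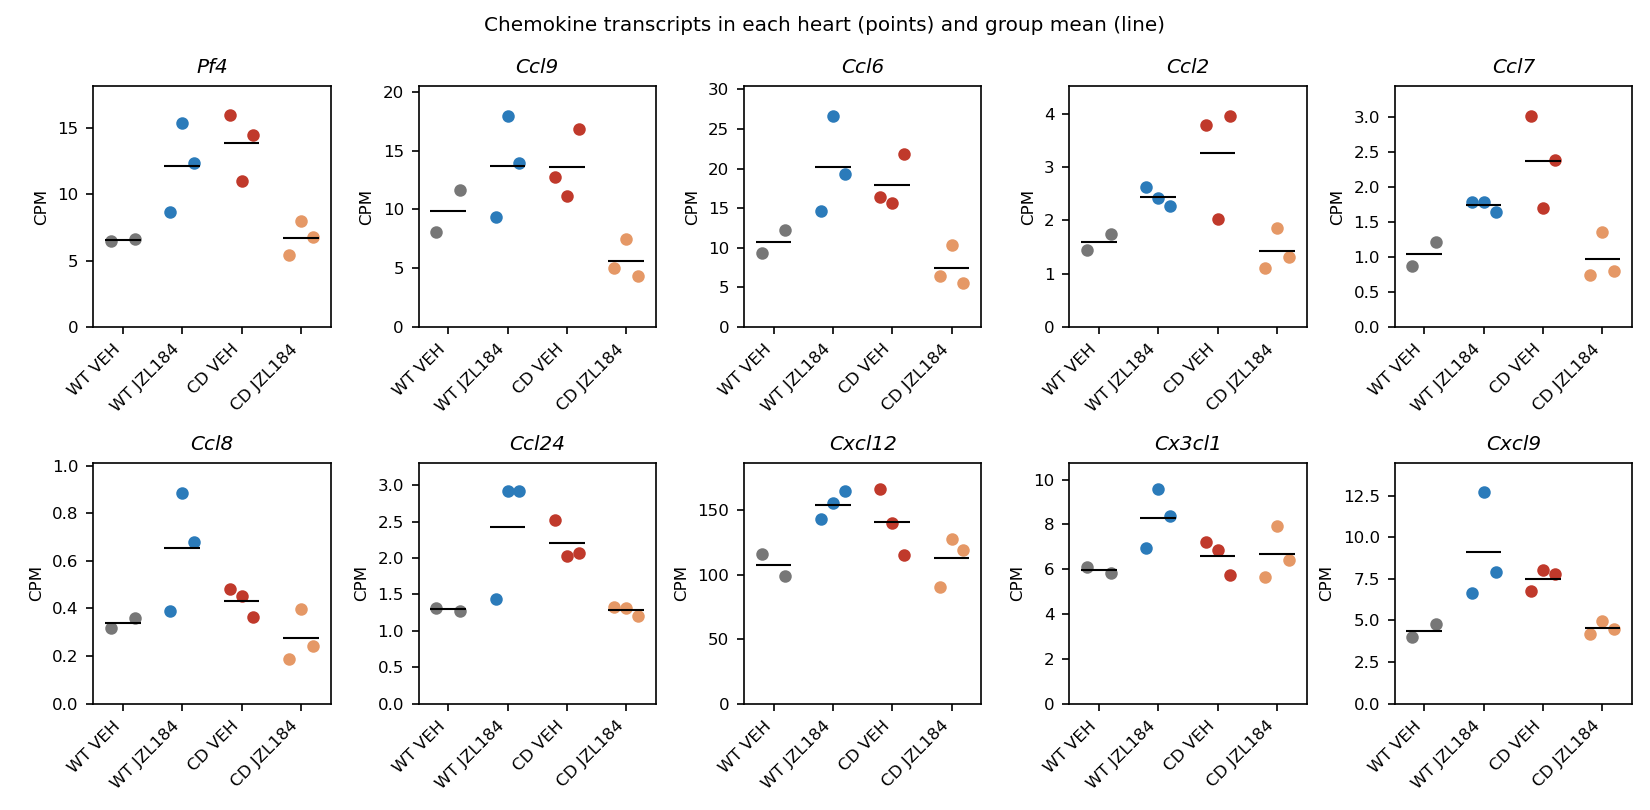
Level of each chemokine in every heart, in CPM (y axis, from 0, own scale per gene), by group (x axis); points are mice and lines are group means. For most genes the WT JZL184 and CD VEH points lie above WT VEH and CD JZL184, as for Pf4 with means of 12.1 and 13.8 CPM against 6.54 and 6.71 CPM, while Cx3cl1 has its highest mean in WT JZL184, 8.30 CPM, and 5.95 to 6.65 CPM in the other groups.

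Pf4 encodes platelet factor 4, a CXC chemokine stored in platelet granules and also transcribed by tissue macrophages. It was at 6.49 and 6.59 CPM in WT VEH and at 11.01, 14.5 and 15.96 CPM in CD VEH. It was at 8.65, 12.3 and 15.4 CPM in WT JZL184 and at 5.39, 6.79 and 7.96 CPM in CD JZL184. Every CD VEH and every WT JZL184 mouse was thus above both WT VEH mice, and CD JZL184 mice lay on either side of them. The CD VEH mean was 2.11 times that of WT VEH (log2 fold-change 1.08, SE 0.23), and CD JZL184 was at 0.486 of the CD VEH mean (log2 fold-change -1.04, SE 0.20). In bulk heart RNA, fewer cells of a type and less RNA per cell cannot be told apart.

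For the 10 chemokines, tests were kept to the comparisons that did not pick them, although these share mice with those that did. In WT mice, Pf4 was 1.85 times higher with JZL184 than with VEH, and all 3 treated mice were above the controls (log2 fold-change 0.89 ± 0.23 SE by edgeR, adjusted p = 0.0159). With 1 WT VEH mouse left out the adjusted p was 0.103 (without C) or 0.0866 (without D). Under JZL184, Pf4 was lower in CD than in WT mice, at 0.554 of the WT mean, and the groups did not overlap (log2 fold-change -0.85 ± 0.20 SE by edgeR, adjusted p = 0.0072). That call was kept in 16 of 16 alternatives, with adjusted p from 0.000123 to 0.0311. WT JZL184 against WT VEH shares its control mice with CD VEH against WT VEH, and CD JZL184 against WT JZL184 shares its CD mice with the JZL184 comparison in CD, so the comparisons are not separate evidence of each other.

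Platelet markers were read beside Pf4. The 12 of them together summed to 7.27 and 8.12 CPM in WT VEH, 5.64 to 11.3 CPM in WT JZL184 and 7.27 to 9.09 CPM in CD JZL184. In CD VEH they summed to 22.7 CPM in mouse A but to 8.53 and 8.55 CPM in mice E and C. Ppbp, a platelet chemokine, was at 4.64 CPM in CD VEH mouse A, the mouse with the highest erythroid markers, and at 1.14 and 1.28 CPM in CD VEH mice C and E, against 0.536 and 0.633 CPM in WT VEH, 0.365 to 1.76 CPM in WT JZL184 and 0.457 to 0.919 CPM in CD JZL184. All 3 CD VEH mice were thus above the WT VEH and CD JZL184 mice in Ppbp, which did not pass the filter. Pf4 in CD VEH mice C and E was at 11.01 and 14.5 CPM, and without CD VEH mouse A its value on the log2 scale was 0.96 for CD VEH over WT VEH and -0.92 for CD JZL184 over CD VEH. Of the 2 platelet markers that passed the filter none rose in WT JZL184 against WT VEH, and Gp1ba, a subunit of the platelet von Willebrand factor receptor, was the single call under JZL184, in the direction opposite to Pf4 (log2 fold-change 0.39 ± 0.12 SE by edgeR, adjusted p = 0.0204). It was kept in 8 of 11 fits with a mouse left out, with an adjusted p of up to 0.074 (without WT JZL184 mouse B).

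Ccl6 and Ccl9 are CC chemokines of the rodent macrophage inflammatory protein group that bind Ccr1 and are made by myeloid cells. Ccl6 was at 9.28 and 12.3 CPM in WT VEH, at 14.6, 19.4 and 26.6 CPM in WT JZL184, at 15.7, 16.4 and 21.8 CPM in CD VEH and at 5.57, 6.45 and 10.3 CPM in CD JZL184. Ccl9 was at 8.05 and 11.6 CPM in WT VEH, at 9.33, 13.9 and 18.0 CPM in WT JZL184, at 11.1, 12.8 and 16.9 CPM in CD VEH and at 4.37, 5.0 and 7.45 CPM in CD JZL184. Both had their lowest mean in CD JZL184, where each mouse was below every mouse of the other groups in Ccl9, and in Ccl6 below every WT JZL184 and CD VEH mouse.

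Under JZL184 both genes were called between the genotypes. Ccl6 was lower in CD than in WT mice (log2 fold-change -1.44 ± 0.25 SE by edgeR, adjusted p = 0.00179), at 0.368 of the WT mean, the lowest ratio of the 10 genes in this comparison. Ccl9 was at 0.408 of the WT mean (log2 fold-change -1.29 ± 0.26 SE by edgeR, adjusted p = 0.00337). Since Ccl9 was picked on values of these same CD JZL184 mice, the choice favours a low p here, and its result is a description. The calls of both were kept in 16 of 16 alternatives, with adjusted p from 5.31e-05 to 0.00991 for Ccl6 and from 0.000383 to 0.0175 for Ccl9.

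In WT mice the 2 neighbours parted at the threshold. Ccl6 rose with JZL184 (log2 fold-change 0.90 ± 0.28 SE by edgeR, adjusted p = 0.032), with all 3 treated mice above the controls. The call was lost in 4 alternatives, namely without WT VEH mouse C (adjusted p = 0.212) or D (0.0775) and without WT JZL184 mouse B (0.0963) or D (0.0542). Ccl9 had a log2 fold-change of 0.48 (SE 0.29 in edgeR, adjusted p = 0.223), and WT JZL184 and WT VEH mice overlapped. Its value depended on the control mice, with 0.24 without WT VEH mouse C and 0.77 without D. The difference between Ccl6 and Ccl9 in this comparison was not tested. As a description, CD VEH was at 1.67 times WT VEH for Ccl6 (log2 fold-change 0.74, SE 0.28) without overlap and at 1.38 times for Ccl9 (log2 fold-change 0.46, SE 0.29) with overlap (0.22 without WT VEH mouse C and 0.75 without D), and CD JZL184 was at 0.414 and 0.413 of CD VEH.

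Across the 11 mice the gene of all 11319 whose log2 CPM was most correlated with that of Ccl9 was Ccl6, and the reverse held too (Pearson r = 0.975, Spearman rho = 0.964). After subtraction of group means r was 0.98, so the likeness is also present between mice of the same group. Next for Ccl9 were Pop5 (r = 0.967) and Lyve1 (r = 0.955), the hyaluronan receptor of resident macrophages and lymphatic vessels, and next for Ccl6 were Cd300ld (r = 0.973), a myeloid receptor, and Man2a1 (r = 0.971). The points share libraries, groups and depth, and these correlations are a description. The sequences before the RefSeq start sites of this pair and of Pf4 are given for comparison (160 bases, GRCm38.p6, strand of the gene, ending 1 base before the start), with matches to TATAAA or GAGGAA on either strand in capitals.
Ccl9 (chr11:83578637-83578796, minus strand): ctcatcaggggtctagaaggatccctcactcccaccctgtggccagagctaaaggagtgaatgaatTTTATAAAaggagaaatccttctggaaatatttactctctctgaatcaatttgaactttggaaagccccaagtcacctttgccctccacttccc
Ccl6 (chr11:83593088-83593247, minus strand): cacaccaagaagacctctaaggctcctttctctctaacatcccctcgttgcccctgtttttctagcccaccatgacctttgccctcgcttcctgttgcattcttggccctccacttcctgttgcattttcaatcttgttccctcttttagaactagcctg
Pf4 (chr5:90772275-90772434, plus strand): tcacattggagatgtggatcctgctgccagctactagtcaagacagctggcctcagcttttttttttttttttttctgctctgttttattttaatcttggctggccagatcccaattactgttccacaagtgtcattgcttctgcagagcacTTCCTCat

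Promoters of 7 of the 10 genes were in the RefSeq table, and 5 sets of letters were searched on both strands of the 250 bases before the start. TATAAA was in Ccl9, Ccl8, Cx3cl1 and Cxcl9 and in 12.4% of 32851 promoters, and the run in capitals in Ccl9 holds it on both strands, overlapping, with first bases 94 and 92 before the start. GAGGAA, the core of sites of PU.1-type ETS factors, was in Pf4 with its first base 8 before the start, in Ccl8 and in Cx3cl1 and in 23.3% of promoters. GGGANTTTC, an NF-kappaB-type site, was in Cxcl9, 154 bases before the start, and in 0.941% of promoters. GATAAG and TTCNNNGAA were in none of the 7 and in 6.55% and 7.02% of promoters. Ccl9 and Ccl6 shared none of the letters searched.

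Ccl2, Ccl7 and Ccl8 are CC chemokines of the monocyte chemoattractant group. Ccl2 and Ccl7 bind Ccr2, the receptor that takes monocytes out of the bone marrow, and mouse Ccl8 binds Ccr8. Ccl2 was at 1.45 and 1.75 CPM in WT VEH, at 2.26, 2.42 and 2.63 CPM in WT JZL184, at 2.04, 3.78 and 3.97 CPM in CD VEH and at 1.11, 1.31 and 1.87 CPM in CD JZL184. Ccl7 was at 0.869 and 1.22 CPM in WT VEH, at 1.64, 1.78 and 1.79 CPM in WT JZL184, at 1.69, 2.38 and 3.01 CPM in CD VEH and at 0.749, 0.804 and 1.36 CPM in CD JZL184. In both genes CD VEH mice A and E were the highest of the study, and the CD JZL184 mice were below all WT JZL184 and CD VEH mice.

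Ccl2 fell in CD against WT mice under JZL184 (log2 fold-change -0.76 ± 0.25 SE by edgeR, adjusted p = 0.0309). This call was lost in 4 of 15 alternatives, without CD JZL184 mouse A (adjusted p = 0.109) or E (0.0945) and without WT JZL184 mouse A (0.0679) or B (0.0587). Ccl7 fell in the fit on all 19080 genes (log2 fold-change -0.81 ± 0.24 SE by edgeR, adjusted p = 0.024) and lost the call without CD JZL184 mouse A (0.0981) or E (0.0942). In WT mice neither passed the threshold with JZL184, although all treated mice were above the controls, with log2 fold-changes of 0.60 (SE 0.28 in edgeR, adjusted p = 0.125) for Ccl2 and 0.72 (SE 0.28 in edgeR, adjusted p = 0.0908) for Ccl7. Ccl2 passed when the model held WT mice alone (0.0467) and without CD VEH mouse C (0.0437), and Ccl7 without CD JZL184 mouse C (0.0499). The CD VEH means were 2.04 and 2.27 times those of WT VEH, the ratio of Ccl7 being the highest of the 10 genes, and the CD JZL184 means were 0.438 and 0.410 of CD VEH.

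Ccl8 rested on 16 to 63 counts per mouse. It was at 0.319 and 0.360 CPM in WT VEH, at 0.391, 0.681 and 0.887 CPM in WT JZL184, at 0.364, 0.454 and 0.482 CPM in CD VEH and at 0.187, 0.241 and 0.398 CPM in CD JZL184. Only WT JZL184 mice B and D stood above the rest. The fall in CD against WT mice under JZL184 passed the threshold (log2 fold-change -1.21 ± 0.33 SE by edgeR, adjusted p = 0.0148) while the mice of the groups overlapped, and it was lost without CD JZL184 mouse A (0.0654) or E (0.0563) or WT JZL184 mouse B (0.0714). JZL184 in WT mice gave a log2 fold-change of 0.93 (SE 0.37 in edgeR, adjusted p = 0.104), which passed only without WT JZL184 mouse A (0.023).

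Ccl24, eotaxin-2, recruits eosinophils through Ccr3 and is made by alternatively activated macrophages. It was at 1.28 and 1.32 CPM in WT VEH, at 1.43, 2.92 and 2.93 CPM in WT JZL184, at 2.02, 2.07 and 2.52 CPM in CD VEH and at 1.21, 1.31 and 1.32 CPM in CD JZL184. Although the gene is the member nearest the deletion, its CD VEH mean was 1.70 times that of WT VEH, and CD JZL184 and WT VEH overlapped (ratio of means 0.987). Ccl24 rose with JZL184 in WT mice (log2 fold-change 0.89 ± 0.25 SE by edgeR, adjusted p = 0.0224), a call lost without WT VEH mouse C (0.141) or D (0.14) or WT JZL184 mouse B (0.0657) or D (0.0726). It fell in CD against WT mice under JZL184 (log2 fold-change -0.90 ± 0.21 SE by edgeR, adjusted p = 0.00689), and this held with each of the 11 mice left out.

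Cxcl9 is induced by interferon-gamma and attracts T cells through Cxcr3. It was at 4.03 and 4.76 CPM in WT VEH, at 6.64, 7.91 and 12.7 CPM in WT JZL184, at 6.75, 7.80 and 8.0 CPM in CD VEH and at 4.17, 4.48 and 4.98 CPM in CD JZL184. WT JZL184 and CD VEH were thus apart from WT VEH and CD JZL184, with every value of the former above every value of the latter. Cxcl9 had the largest rise of the tested members with JZL184 in WT mice (log2 fold-change 1.05 ± 0.23 SE by edgeR, adjusted p = 0.00796). The call was lost in 1 alternative, without WT VEH mouse C (0.0798), and without WT JZL184 mouse B the log2 fold-change was 0.73. Under JZL184 Cxcl9 fell in CD against WT mice (log2 fold-change -0.997 ± 0.20 SE by edgeR, adjusted p = 0.00299), with the call kept in 16 of 16 alternatives. The genes most correlated with it over the 11 mice were Slco2b1 (r = 0.987), an organic anion transporter, Galnt10 (r = 0.985) and Sept9 (r = 0.985).

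Cxcl12 and Cx3cl1 are chemokines known for steady production in resting tissue, although in these data all 10 genes were present in WT VEH hearts. Cxcl12, which retains leukocytes and guides vessels through Cxcr4 and is scavenged by Ackr3, was at 99.0 and 116 CPM in WT VEH, at 143, 155 and 165 CPM in WT JZL184, at 116, 141 and 166 CPM in CD VEH and at 90.5, 120 and 128 CPM in CD JZL184. Cx3cl1, fractalkine, which endothelial cells hold at their surface for Cx3cr1-bearing monocytes, was at 5.81 and 6.10 CPM in WT VEH, at 6.94, 8.38 and 9.58 CPM in WT JZL184, at 5.73, 6.83 and 7.23 CPM in CD VEH and at 5.63, 6.41 and 7.92 CPM in CD JZL184. Their highest and lowest mice differed by a smaller ratio than in the other members, and in both, CD VEH overlapped WT VEH and CD JZL184.

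Cxcl12 rose with JZL184 in WT mice to 1.43 times the control mean (log2 fold-change 0.52 ± 0.16 SE by edgeR, adjusted p = 0.0321). It lost the call in 4 alternatives, without WT VEH mouse C (0.0853) or D (0.21) or WT JZL184 mouse B (0.0593) or D (0.0755). It fell in CD against WT mice under JZL184 (log2 fold-change -0.45 ± 0.14 SE by edgeR, adjusted p = 0.0264), without overlap, and lost the call without CD JZL184 mouse A (0.0983) or WT JZL184 mouse B (0.0521) or D (0.0753). Cx3cl1 rose with JZL184 in WT mice (log2 fold-change 0.48 ± 0.16 SE by edgeR, adjusted p = 0.0445), but 8 of 16 alternatives lost the call, with adjusted p from 0.0133 to 0.193. Those were a model of WT mice alone (0.052) and leaving out WT VEH mouse C (0.15) or D (0.193), WT JZL184 mouse B (0.127) or D (0.0828), CD VEH mouse A (0.0501) or C (0.054), or CD JZL184 mouse E (0.0594). Between genotypes under JZL184, Cx3cl1 had a log2 fold-change of -0.32 (SE 0.14 in edgeR, adjusted p = 0.0965) with overlap, and it passed without CD JZL184 mouse C (0.0305) or WT JZL184 mouse A (0.0292). Its value lay between -0.46 without CD JZL184 mouse C and -0.20 without WT JZL184 mouse B.

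The log2 CPM of Cxcl12 and Cx3cl1 were correlated over the 11 mice (r = 0.803, and r = 0.791 after subtraction of group means). With the other tested members, r after subtraction lay between -0.0186 (Ccl9, 0.53 before) and 0.501 (Pf4) for Cxcl12. For Cx3cl1 it lay between 0.154 (Ccl2) and 0.739 (Pf4), so a high value was not particular to this pair. The genes closest to Cxcl12 were Enpp2 (r = 0.938), which encodes autotaxin, Arhgap28 and Tomm34 (both r = 0.934), and those closest to Cx3cl1 were Fam219a (r = 0.933), Gstt3 (r = 0.914) and Fam149a (r = 0.913). For Pf4 they were H3f3b (r = 0.987), S100a11 (r = 0.986) and Cd9 (r = 0.984), and for Ccl2 they were Fcf1 (r = 0.967), Asb5 (r = 0.966) and Zfp719 (r = 0.955).

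**Figure D2:**
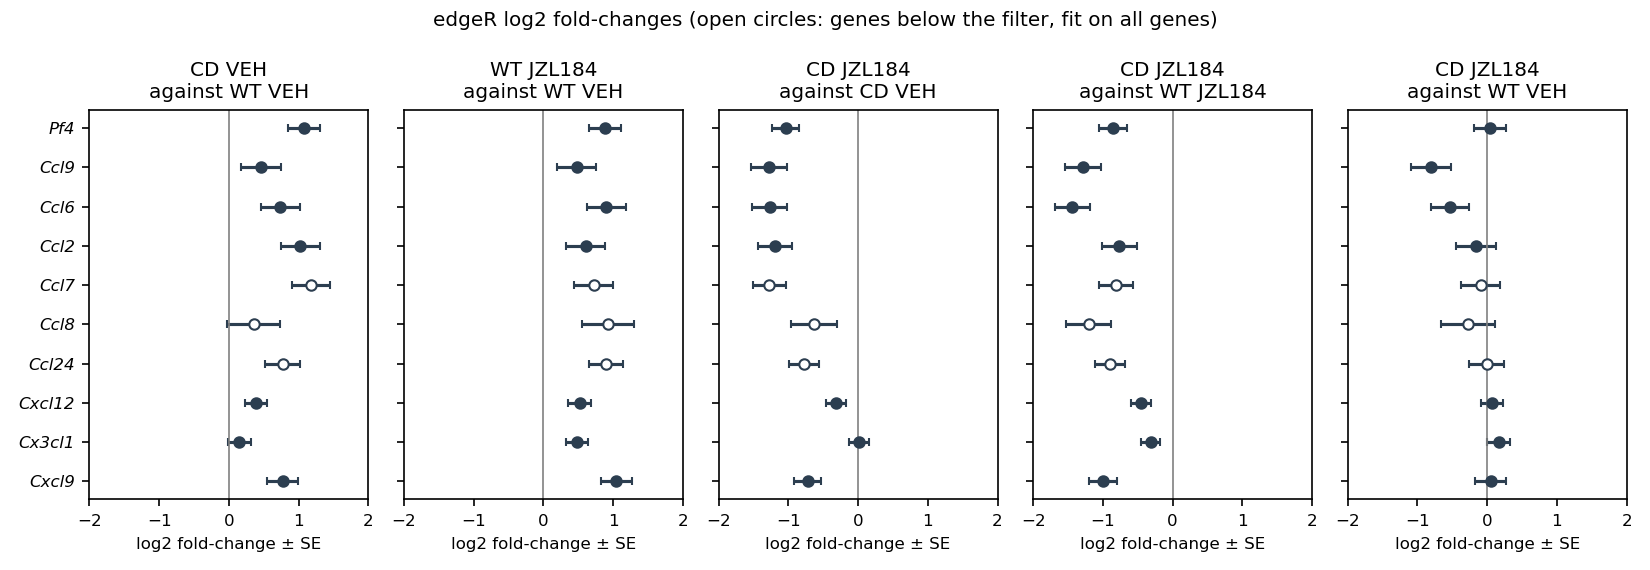
Fitted log2 fold-changes (x axis) with SE (bars) of the 10 chemokines (y axis) in 5 comparisons; filled circles come from the fit on 11319 genes and open circles from that on all genes. Points lie right of 0 for CD VEH and WT JZL184 against WT VEH and left of 0 for CD JZL184 against WT JZL184, and against WT VEH the lowest CD JZL184 point is Ccl9 at -0.81.

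Counted together, JZL184 in WT mice raised 5 of the 7 tested members (Pf4, Ccl6, Cxcl12, Cx3cl1 and Cxcl9) and Ccl24 among the 3 below the filter, and lowered 0. Over all tested genes 15.4% were called higher and 14.0% lower in this comparison. CD against WT mice under JZL184 gave 6 of the 7 tested members lower (all but Cx3cl1), the 3 below the filter lower too, and 0 higher, where 20.1% of all tested genes were called lower and 18.2% higher. In CD VEH against WT VEH, which picked Pf4, the mice of the groups did not overlap for 7 of the 10 genes, all higher in CD VEH. In that comparison 32.5% of the tested genes were higher and 31.5% lower without overlap, and 15.0% were called higher and 15.4% lower by edgeR. In CD JZL184 against CD VEH, which picked Ccl9, 7 of the 10 were lower without overlap, with 27.3% of tested genes lower and 27.2% higher without overlap, and 17.0% called lower and 16.8% higher. These last 2 counts follow from the choice of the genes. The first 2 share the WT VEH and the CD JZL184 mice with the comparisons that picked genes, so the choice favours their directions too, and all 4 counts are a description.

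CD JZL184 and WT VEH mice overlapped for 9 of the 10 genes. Ccl9 was the exception, lower in all 3 CD JZL184 mice, at 0.569 of the WT VEH mean (log2 fold-change -0.81, SE 0.29), and Ccl6 had a log2 fold-change of -0.53 (SE 0.28) with overlap. The values of the other genes lay between -0.28 for Ccl8 and 0.16 for Cx3cl1. Over all tested genes, 18.9% were lower and 17.7% higher without overlap.

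The receptors that these chemokines bind were read next. Ccr2 was at 1.77 and 2.52 CPM in WT VEH and at 3.31, 4.08 and 4.22 CPM in WT JZL184, and it rose with JZL184 in WT mice (log2 fold-change 0.85 ± 0.21 SE by edgeR, adjusted p = 0.0134) and fell in CD against WT mice under JZL184 (log2 fold-change -0.91 ± 0.18 SE by edgeR, adjusted p = 0.00355). Cxcr4, the receptor of Cxcl12, was at 4.17 and 4.27 CPM in WT VEH and at 5.81, 8.29 and 8.44 CPM in WT JZL184 (log2 fold-change 0.83 ± 0.15 SE by edgeR, adjusted p = 0.00422), and under JZL184 it was lower in CD than in WT mice (log2 fold-change -0.67 ± 0.13 SE by edgeR, adjusted p = 0.00301). The Cxcr4 calls were kept with each of the 11 mice left out, whereas the Ccr2 call in WT mice was kept in 10 of 11 such fits, with the highest adjusted p without WT VEH mouse D (0.132), and its call under JZL184 in 11 of 11. Neither receptor was called in the comparisons of CD VEH with WT VEH and of CD JZL184 with CD VEH. In Cxcr4, however, the groups did not overlap in either. CD VEH mice were at 5.35 to 5.92 CPM, above WT VEH (adjusted p = 0.0659 by edgeR). CD JZL184 mice were at 4.30 to 5.14 CPM, below CD VEH (adjusted p = 0.192 by edgeR).

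Cx3cr1, the receptor of Cx3cl1, had mean levels of 4.09 and 6.11 CPM in WT VEH and WT JZL184 and of 5.79 and 5.18 CPM in CD VEH and CD JZL184, and passed the threshold in none of the 4 comparisons, with edgeR adjusted p from 0.0817 to 0.569. With a mouse left out it passed in 1 of 11 fits for each of CD VEH and WT JZL184 against WT VEH, and in 0 otherwise. Ackr3, the scavenging receptor of Cxcl12, was the most abundant receptor in CPM, with means of 86.4, 101, 80.5 and 77.1 in the same order of groups, and it fell in CD against WT mice under JZL184 (log2 fold-change -0.39 ± 0.12 SE by edgeR, adjusted p = 0.0273) with overlap, at 65.0 to 88.5 CPM against 82.4 to 116 CPM, and the call was kept in 7 of 11 fits with a mouse left out, with an adjusted p of up to 0.107 (without CD JZL184 mouse A). Ccr1, the receptor of Ccl6 and Ccl9, did not pass the filter, with means of 0.936, 2.18, 1.77 and 0.994 CPM, and its WT JZL184 mice were above WT VEH and CD JZL184 mice. Ackr2, which scavenges CC chemokines, had means of 1.12 to 1.75 CPM, and Ackr4 means of 2.49 to 3.69 CPM with no call. Ccr3 and Ccr8, the receptors of Ccl24 and Ccl8, had group means of at most 0.0278 and 0.00819 CPM, and Cxcr3 and Ackr1 of at most 0.136 and 0.188 CPM, so several of the chemokines were present in hearts with few or no reads of the receptor they are known for.

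**Figure D3:**
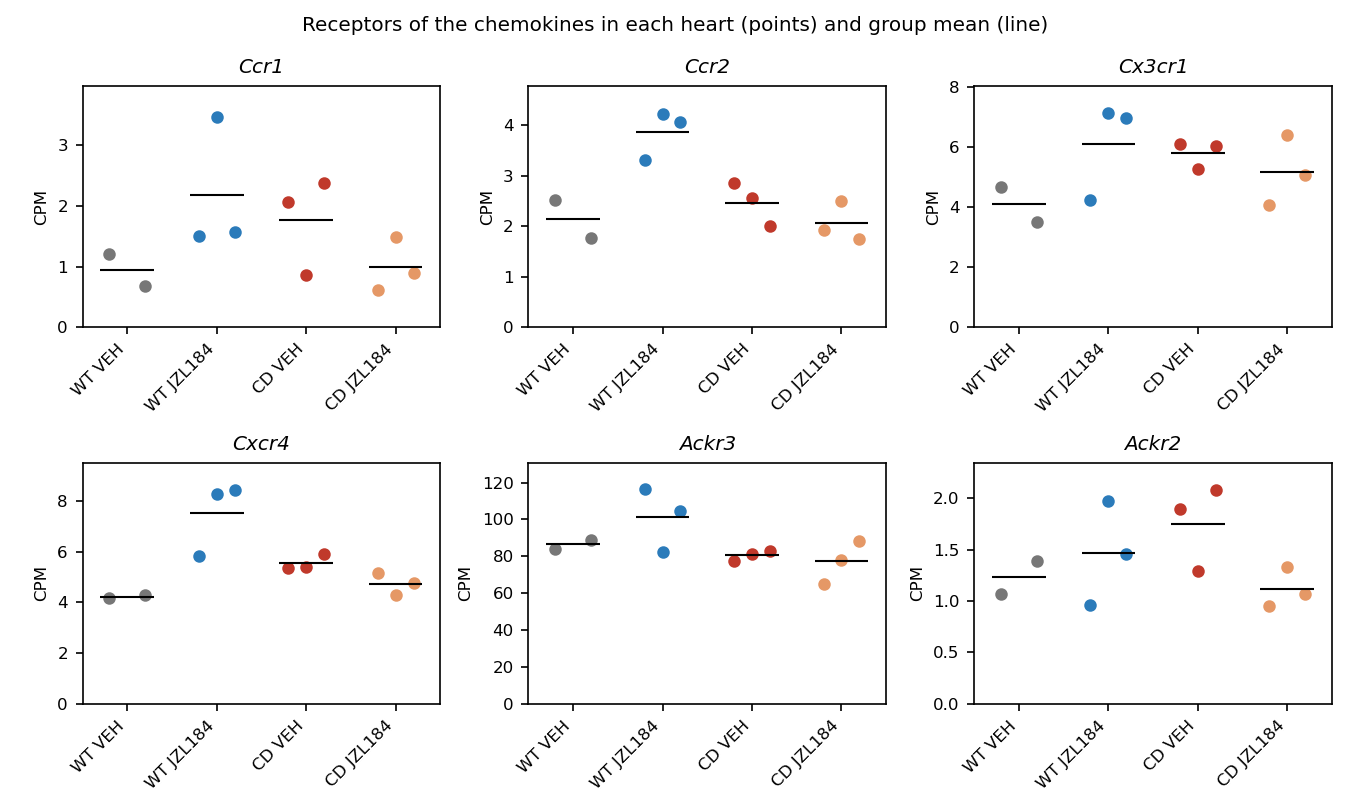
Level of 6 chemokine receptors in every heart, in CPM (y axis, from 0, own scale per gene), by group (x axis); points are mice and lines are group means. Ccr2 and Cxcr4 are highest in WT JZL184, with means of 3.87 and 7.51 CPM, and CD VEH means of 2.47 and 5.55 CPM lie nearer to the other groups. In Cxcr4 the CD VEH points still lie above all WT VEH and CD JZL184 points.

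Other chemokines were few. Of 17 further CC chemokines in the table, 2 passed the filter. Ccl21a, the lymphatic ligand of Ccr7, was called higher in CD VEH than in WT VEH (log2 fold-change 0.73 ± 0.20 SE by edgeR, adjusted p = 0.0204), lower in CD JZL184 than in CD VEH (-0.58, SE 0.18, adjusted p = 0.0273) and higher with JZL184 in WT mice (0.58, SE 0.20, adjusted p = 0.0493), the last with overlap. Near-identical copies of this gene exist, which makes its counts uncertain, and with a mouse left out its calls were kept in 8, 7 and 1 of 11 fits, with adjusted p up to 0.173, 0.104 and 0.319. Ccl27a, the other gene, had no call. Of 12 further CXC and XC chemokines, Cxcl14 and Cxcl16 passed the filter. Cxcl16, the transmembrane ligand of Cxcr6, was called in all 4 comparisons, higher in CD VEH (0.45 ± 0.16 SE by edgeR, adjusted p = 0.0466) and in WT JZL184 (0.51, SE 0.16, adjusted p = 0.029) than in WT VEH, and lower in CD JZL184 than in CD VEH (-0.50, SE 0.14, adjusted p = 0.0166) and WT JZL184 (-0.57, SE 0.14, adjusted p = 0.00788). Cxcl14 rose with JZL184 in WT mice (0.84 ± 0.17 SE by edgeR, adjusted p = 0.00707) and fell in CD against WT mice under JZL184 (-0.54, SE 0.15, adjusted p = 0.0155). With a mouse left out, the Cxcl16 calls were kept in 3, 8, 8 and 11 of 11 fits in the order given, with adjusted p of 0.191 and 0.143 without WT VEH mouse D and 0.0805 without CD VEH mouse E, and those of Cxcl14 in 10 and 8 (0.0664 without WT VEH mouse D and 0.0632 without CD JZL184 mouse E).

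Genes around the chemokines were counted by list. Over all tested genes, edgeR called 15.4% higher in WT JZL184 against WT VEH and 20.1% lower in CD JZL184 against WT JZL184. It called 15.0% higher in CD VEH against WT VEH and 17.0% lower in CD JZL184 against CD VEH. Of 15 tested genes that interferon-gamma induces, which are regulated as Cxcl9 is, 10 rose and 0 fell with JZL184 in WT mice (median log2 fold-change 0.53, against 0.00 over all tested genes), and 8 fell and 0 rose in CD against WT mice under JZL184 (median -0.45, against 0.00). Gbp2, a guanylate-binding protein, had log2 fold-changes of 0.74 (SE 0.14 in edgeR, adjusted p = 0.00475) and -0.77 (SE 0.12, adjusted p = 0.00119), and the immunoproteasome subunit Psmb9 0.74 (SE 0.18, adjusted p = 0.0115) and -0.62 (SE 0.15, adjusted p = 0.00924). With a mouse left out, the call in WT mice was kept in 10 of 11 fits for Gbp2 (0.0599 without WT VEH mouse C) and 9 for Psmb9 (up to 0.0786, without WT VEH mouse D), and those under JZL184 in 11. In CD VEH against WT VEH 8 rose and 0 fell (median 0.46), among them the transcription factor Irf1 (0.73, SE 0.11, adjusted p = 0.00288), and in CD JZL184 against CD VEH 7 fell and 0 rose (median -0.28). Without WT VEH mouse C the counts of both comparisons with WT VEH were 1, namely Irf1, whose calls in the 4 comparisons were kept with each mouse left out.

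Of 15 tested genes of the cytokines, cytokine receptors and NF-kappaB factors that induce chemokines, 8 rose and 0 fell with JZL184 in WT mice (median log2 fold-change 0.42) and 9 fell and 0 rose in CD against WT mice under JZL184 (median -0.43). Over all tested genes 15.4% were called higher in the former comparison and 20.1% lower in the latter. Il1b, the cytokine interleukin-1 beta, was called in the comparisons of CD VEH with WT VEH (log2 fold-change 1.49 ± 0.35 SE by edgeR, adjusted p = 0.0102) and of CD JZL184 with CD VEH (-1.16, SE 0.29, adjusted p = 0.0117) and in neither of the others, with CD VEH mice at 2.43, 3.76 and 4.64 CPM. Its calls were kept in 8 and 10 of the 10 fits with a mouse left out in which it passed the filter (up to 0.0829 in the first, without WT VEH mouse D). In those 2 comparisons the list gave 6 rises and 7 falls. Of 15 tested signalling genes downstream of chemokine receptors, 7 rose in WT mice with JZL184 and 8 fell in CD against WT mice under JZL184, led by the haematopoietic GTPase Rac2 (log2 fold-changes 0.89 ± 0.21 and -0.70 ± 0.18 SE by edgeR, adjusted p = 0.0111 and 0.0112, kept in 9 and 11 of 11 fits with a mouse left out, up to 0.0951 in the first without WT VEH mouse D), while 4 rose in CD VEH against WT VEH, where 15.0% of all tested genes were called higher, and 2 fell in CD JZL184 against CD VEH, a smaller share than the 17.0% of all tested genes called lower there. Without WT VEH mouse C, 2 genes of the cytokine list and 1 signalling gene were called in WT mice, and 0 of either list in CD VEH against WT VEH.

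Of 6 tested proteases that process chemokines, Dpp4, which trims Cxcl12, was called higher in CD VEH than in WT VEH (log2 fold-change 0.78 ± 0.23 SE by edgeR, adjusted p = 0.0262) and lower in CD JZL184 than in CD VEH (-0.75, SE 0.20, adjusted p = 0.0154). Adam17, a sheddase of Cx3cl1, was lower in CD VEH than in WT VEH (-0.23, SE 0.08, adjusted p = 0.0413). Cathepsin S, encoded by Ctss, rose with JZL184 in WT mice (0.81, SE 0.22, adjusted p = 0.0187) and fell in CD against WT mice under JZL184 (-0.90, SE 0.19, adjusted p = 0.00433). It was also called lower in CD JZL184 than in CD VEH (-0.71, SE 0.19, adjusted p = 0.0163), and it lay at the threshold in CD VEH against WT VEH (0.62, SE 0.22, adjusted p = 0.05), where the list counts it as a rise. With a mouse left out, these calls were kept in 7 and 8 of 11 fits for Dpp4 (0.138 without WT VEH mouse D and 0.0572 without CD VEH mouse A), 4 for Adam17 (0.245 without WT VEH mouse C) and 8, 11, 9 and 3 for Ctss in the order given (0.158 and 0.298 without WT VEH mouse C in the first and last, 0.0789 without CD VEH mouse E in the third).

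Markers of macrophages, endothelial cells, fibroblasts and smooth muscle and pericytes had higher mean sums in WT JZL184 and CD VEH than in the other groups, as most of the chemokines had. Platelet sums were at 1.72 times WT VEH in CD VEH, where mouse A was the highest, and at 1.03 times in WT JZL184, and the part of the markers in the chemokine values was not tested. The 19 macrophage markers together summed to 276 and 279 CPM in WT VEH, 333 to 558 CPM in WT JZL184, 356 to 432 CPM in CD VEH and 238 to 270 CPM in CD JZL184. Of the 17 that passed the filter, 14 rose and 0 fell with JZL184 in WT mice (median log2 fold-change 0.74), 16 fell and 0 rose in CD against WT mice under JZL184 (median -0.83), 9 rose in CD VEH against WT VEH (median 0.43) and 14 fell in CD JZL184 against CD VEH (median -0.68). In the same order, 15.4% of all tested genes were called higher, 20.1% lower, 15.0% higher and 17.0% lower. WT JZL184 mouse B, the highest in Pf4, Ccl6, Ccl9 and Cxcl9 within its group, was also the highest in macrophage markers. Without WT VEH mouse C the counts were 1 in WT mice and 0 between vehicle-treated genotypes, and under JZL184 they stayed between 14 and 17 with any mouse left out.

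Endothelial markers summed to 646 and 648 CPM in WT VEH, 979 to 1036 CPM in WT JZL184, 831 to 925 CPM in CD VEH and 631 to 725 CPM in CD JZL184, and all 8 rose in WT JZL184 against WT VEH and fell in CD JZL184 against WT JZL184, with each of the 11 mice left out too. In CD VEH against WT VEH 7 rose, and in CD JZL184 against CD VEH 7 fell. Fibroblast markers gave 5 rises of 8 in WT mice and 5 falls under JZL184 (3 rises and 4 falls in the other comparisons), and smooth muscle and pericyte markers 5 of 6 and 6 of 6 (5 and 4). In the same order, 15.4% of all tested genes were called higher, 20.1% lower, 15.0% higher and 17.0% lower. With lists this short, fibroblast counts of 3 and 4 exceed those shares by few genes. Of 9 cardiomyocyte markers, 4 were lower and 0 higher in both CD VEH and WT JZL184 against WT VEH, and 3 were higher and 1, Myl2, lower when CD JZL184 was compared with either, while the rest had no call. Of all tested genes, 15.4% and 14.0% were called lower against WT VEH, and 16.8% and 18.2% higher in CD JZL184. Of monocyte and dendritic cell markers 3 passed the filter, with 1 rise in WT mice, that of Ccr2 already given, 2 falls under JZL184, of Ccr2 and, with overlap, of Ace (adjusted p = 0.0412 by edgeR), and 0 calls otherwise. Ace, at 42.3 CPM in WT VEH, made up most of the 49.6 CPM that these markers summed to there, so their sum says little of the other genes. Markers of neutrophils, of eosinophils and mast cells and of T, B and NK cells did not pass the filter, with sums of 2.71 to 14.1, 1.13 to 3.77 and 3.31 to 6.32 CPM. Of 5 erythroid genes, 5 fell in CD JZL184 against CD VEH and 0 without CD VEH mouse A, and the single atrial marker tested had 0 calls.

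**Figure D4:**
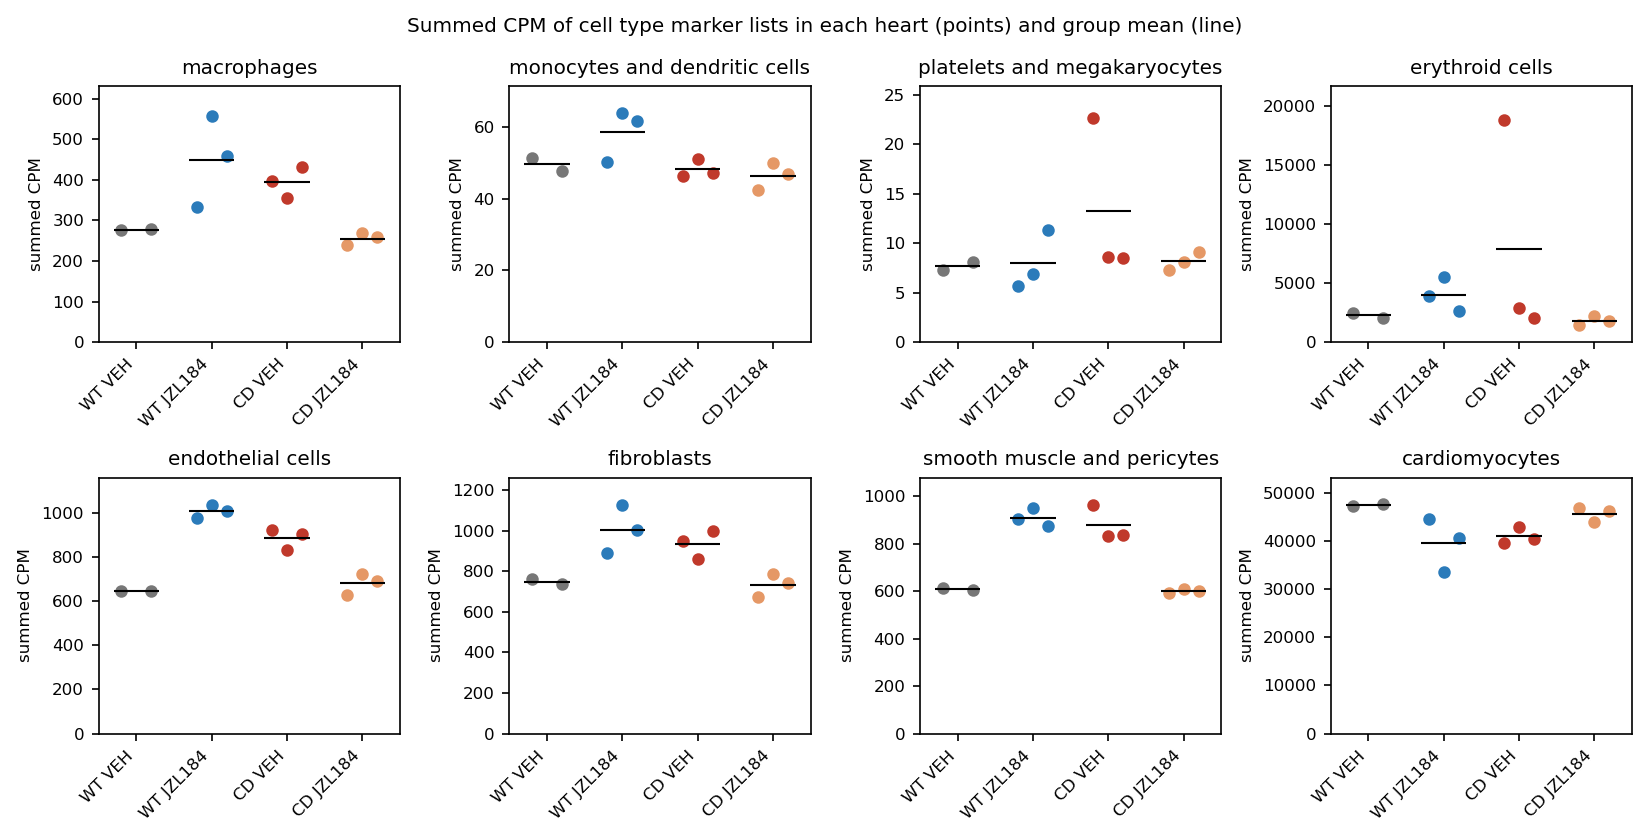
Summed CPM (y axis, from 0, own scale per list) of 8 cell type marker lists in every heart, by group (x axis); points are mice and lines are group means. Macrophage and endothelial sums are highest in WT JZL184 and CD VEH (macrophage means of 450 and 395 CPM against 277 and 255 CPM in WT VEH and CD JZL184), cardiomyocyte sums are lower there, and CD VEH mouse A stands apart in the platelet and erythroid sums.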

How the data were processed

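Hearts of 11 mice were sequenced by the authors on a HiSeq3000 instrument, and the table they deposited gives, for each mouse, the estimated counts of genes that Salmon 0.7.2 (per the labels, on mm10) and tximport produced, not normalized. The counts were rounded, scaled by TMM and tested with edgeR 4.0.16 in R 4.3.3 (quasi-likelihood test, all 4 groups in a single model without covariates, limma 3.58.1, Benjamini-Hochberg over the 11319 genes whose log2 CPM averaged 1 or more, calls at an adjusted p under 0.05). The prior count of log2 CPM in correlations was 2. Symbols came from GENCODE mouse release 21 by identifier (22238 of 22608 genes) and promoters from RefSeq. The spread between mice of a group was 22.6 to 125 in chi-square per gene, above sampling noise, so no library was counted as a duplicate. With 2 WT VEH mice an exact test of a single value could not reach 0.05.

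The members, lists and comparisons were chosen with earlier results of these data known. Named genes are the 10 members, their receptors (not all reported here), up to 3 called genes without overlap per list and comparison with the largest change (a selection is described), and the 3 genes most correlated with each tested member. Alternatives were RLE scaling, no filter, DESeq2 1.42.0, only the compared groups, no mitochondrial genes and each mouse left out. Leaving out mice for the 3 members below the filter was added after seeing the data. The steps were tested on simulated counts.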

Additional observations from a re-analysis of the deposited data

Results flagged for a closer look

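For 8 of the 10 chemokines, every WT JZL184 mouse lay above the WT VEH mean and every CD JZL184 mouse lay below the CD VEH mean, so that JZL184 went with opposite directions in the 2 genotypes. Of the 7 members that passed the filter 5 were so placed, and over all 11319 tested genes 26.7% were, with 27.1% in the reverse directions, so such a separation was common in these hearts. The log2 fold-change of JZL184 in CD mice minus that in WT mice was -1.93 (SE 0.31) for Pf4, -2.17 (SE 0.38) for Ccl6 and -1.77 (SE 0.30) for Cxcl9. It was -1.79 (SE 0.38) for Ccl2, -1.99 (SE 0.37) for Ccl7, -1.56 (SE 0.50) for Ccl8 and -1.67 (SE 0.33) for Ccl24, and -0.84 (SE 0.22) for Cxcl12. The difference was not tested, because it contains a comparison that picked the genes. Ccl9 had -1.75 (SE 0.39) and Cx3cl1 -0.47 (SE 0.22), without this separation of mice. With 2 or 3 mice a group, no test for a single distant mouse was made.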

How the results depend on the processing

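Over the alternatives, 0 of the chemokine fold-changes with a call changed direction. Of the 219 values of the 15 fold-changes with a call, 184 kept it and 35 lost it, and of the 70 values of the 5 tested without a call, 6 gained one, each named beside its result. Another 224 values belong to the 14 fold-changes with no test, which had no call to lose. With each mouse left out in turn, the number of genes called ranged from 385 (without WT VEH mouse C) to 4201 in CD VEH against WT VEH (all mice 3440), 2038 (without CD VEH mouse E) to 4655 in CD JZL184 against CD VEH (all mice 3831), 558 (without WT VEH mouse C) to 4487 in WT JZL184 against WT VEH (all mice 3332) and 2957 (without CD JZL184 mouse E) to 4873 in CD JZL184 against WT JZL184 (all mice 4331). Modelling the compared groups alone, 1652 genes were called in WT JZL184 against WT VEH. Leaving out a WT VEH mouse left 1, assumed to vary like the other groups. No paired analysis was possible because the columns of the table carry letters that no sample label holds and not the replicate numbers, so the planned replicate block was not run. Ccl2 had no DESeq2 adjusted p under JZL184. The counts of Ccl8, 16 to 63 per mouse, limit its precision, and estimated counts were not corrected for transcript length.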
